A study of Mus musculus with 2 samples.

Results

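Tenocytes, the cells that build and maintain tendon, were examined in mouse gastrocnemius on day 14 after cardiotoxin (CTX), an injected toxin that kills fibers and starts regeneration. A cell was taken as a tenocyte when it held at least 1 unique molecular identifier (UMI, the tag that counts an RNA molecule once) of at least 3 of the 5 tendon genes Tnmd, Chad, Kera, Scx and Cilp2 and none of Pecam1, Cdh5 and Ptprc, which mark endothelial and immune cells. This rule was met by 655 of 13432 cells, 353 from the WT-labelled library and 302 from the KO-labelled one. Because the cells were chosen by the measured UMIs of these 8 genes, the levels of the 5 rule genes and the absence of the 3 excluded genes are descriptions and not findings.

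The study compared muscle of WT mice (C57BL/6J) with muscle of Gsdme-KO mice, in which the gene for the pore-forming protein gasdermin E is deleted. Both groups were male, both received CTX, and the age was not given in the sources used here. Each genotype was captured as 1 droplet library with a 5′ kit. The methods give 5 mice per group and do not say whether they were pooled. No replicate library existed, so no test between genotypes was possible and no p-value is given. All intervals are exact 95% intervals unless named otherwise, and they cover counting error only.

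Tenocytes lie between collagen bundles and secrete type I collagen together with proteins that set the spacing and thickness of its fibrils. Their identity depends on the transcription factor Scleraxis (Scx), which acts with Mohawk (Mkx) and Egr1, and their surface carries tenomodulin (Tnmd). Where tendon meets muscle, at the myotendinous junction, collagen XXII (Col22a1) links the fiber end to the tendon. In regenerating muscle, tenocytes share a mesenchymal origin with fibro-adipogenic progenitors (FAPs), the Pdgfra-positive stromal cells of the tissue.

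Scleraxis is a basic helix-loop-helix factor and such factors bind the E-box, written CANNTG, so the 250 bases before the start of 3 genes described here were read from the RefSeq promoters of build GRCm38.p6. Capitals mark every CANNTG match (the motif reads the same on both strands). They are shown because Fmod and Mstn were among the 20 genes highest over other stromal cells, and Tnmd is the surface marker among the rule genes. Of those 20 genes, Mstn differed most between the libraries.
Fmod, chr1:134037004-134037253, plus strand: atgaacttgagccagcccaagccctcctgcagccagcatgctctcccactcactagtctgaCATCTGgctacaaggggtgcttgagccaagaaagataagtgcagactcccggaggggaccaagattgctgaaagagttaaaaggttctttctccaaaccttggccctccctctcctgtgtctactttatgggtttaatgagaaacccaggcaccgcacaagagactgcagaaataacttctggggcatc
Mstn, chr1:53061390-53061639, plus strand: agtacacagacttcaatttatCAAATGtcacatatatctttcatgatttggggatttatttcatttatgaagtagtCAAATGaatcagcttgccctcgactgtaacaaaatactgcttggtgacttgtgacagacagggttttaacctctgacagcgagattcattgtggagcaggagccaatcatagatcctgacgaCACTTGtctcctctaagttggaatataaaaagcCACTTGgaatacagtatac
Tnmd, chrX:133850758-133851007, plus strand: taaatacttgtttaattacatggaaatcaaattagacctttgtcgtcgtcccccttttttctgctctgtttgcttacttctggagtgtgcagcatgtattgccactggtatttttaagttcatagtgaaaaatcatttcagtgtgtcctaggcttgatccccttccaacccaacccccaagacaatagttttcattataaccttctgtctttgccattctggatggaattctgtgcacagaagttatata
The Fmod window held 1 match, CATCTG, beginning at position -189 from the start, the Mstn window held 4 (positions -229, -174, -52 and -19), and the Tnmd window held 0. Of the 25 genes formed by the 5 rule genes and the 20 genes with the highest level over other stromal cells, 20 had a promoter in the table. CANNTG was present in 13 of the 20 (65.0%) and in 66.0% of all 27025 promoters of this length. The form CATCTG or its complement CAGATG was present in 4 of the 20 (Angptl7, Egfl6, Fmod and Insc) and in 14.5% of all promoters. A match is a run of letters and was not tested as a binding site.

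The label fitted the markers that the rule did not use. Levels are UMIs summed over the cells of a library per 1000000 of their UMIs (CPM). Fibromodulin (Fmod), a small leucine-rich proteoglycan that binds collagen fibrils, stood at 10915 CPM in WT tenocytes and at 9873 in KO tenocytes. Collagen XI alpha 1 (Col11a1), which starts thin fibrils, stood at 1271 and 1150. Other stromal cells, defined as cells with a Pdgfra UMI, no UMI of a rule gene and none of Pecam1, Cdh5 and Ptprc (1086 WT and 1509 KO cells), held 17.1 and 11.95 CPM of Fmod and 6.43 and 7.86 of Col11a1. Pdgfra itself was read in 21.5% of WT tenocytes (17.4 to 26.2) and in 25.5% of KO tenocytes (20.7 to 30.8), and in 5.61% and 4.51% of endothelial cells, which should lack it. After thinning to 1000 UMIs per cell, these shares were 3.16% and 3.05% in tenocytes and 1.32% and 0.828% in endothelial cells. The proliferation gene Mki67 was read in 2 cells of each library.

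**Figure D1:**
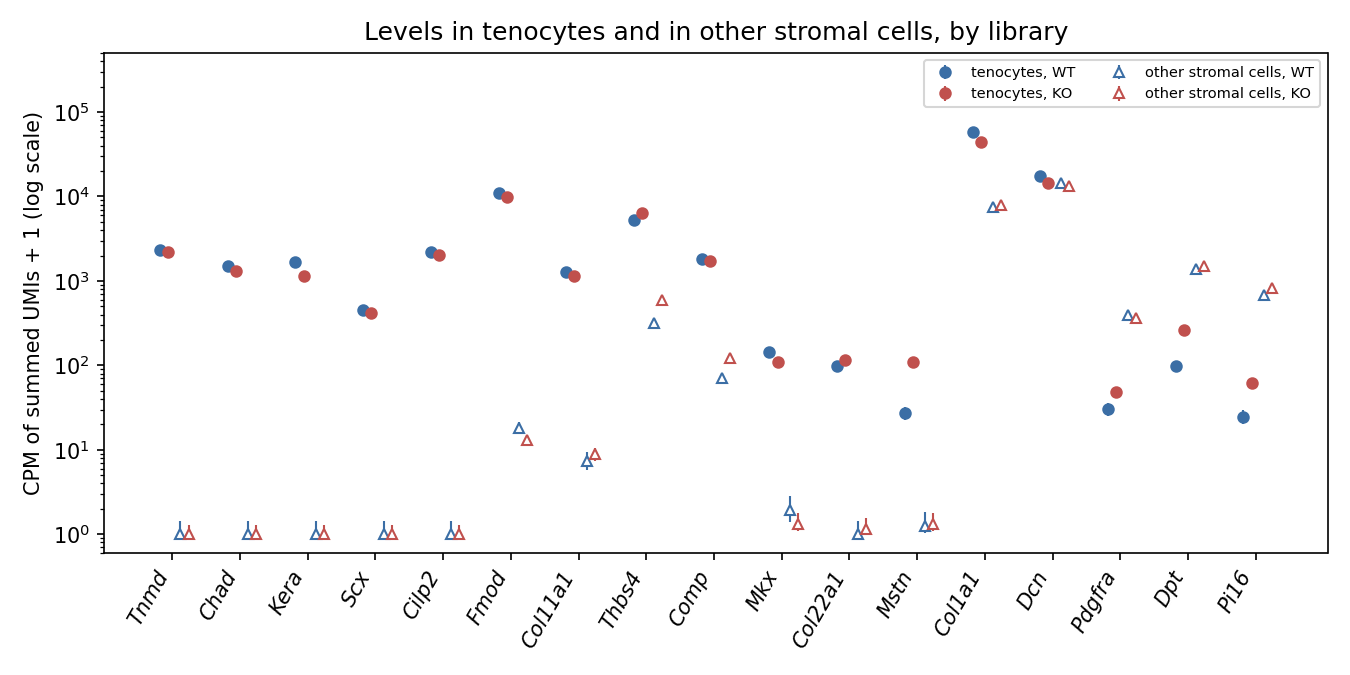
Level of each gene in CPM plus 1 on a log scale, for tenocytes (filled circles) and other stromal cells (open triangles) of the WT (blue) and KO (red) library; bars are exact Poisson 95% intervals. The 5 rule genes, which are 0 in other stromal cells by construction, Fmod, Col11a1 and Mkx are high in tenocytes, whereas Dpt and Pi16 are lower there, as is Pdgfra, which chose the other stromal cells, and the WT and KO tenocyte points of Mstn lie apart (26.0 and 109 CPM before 1 is added).

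Depth differed little between the tenocytes of both libraries. WT tenocytes held 4346975 UMIs with a median of 11620 per cell, and KO tenocytes held 3673260 with a median of 11691.5. Other stromal cells were shallower (medians of 7519.5 and 8292 UMIs), and the whole libraries held 6354 and 7078 cells with medians of 5740 and 5962.5. No tenocyte barcode occurred in both libraries (4 barcodes of all cells did). Gsdme did not check the labels: tenocytes held 28 WT and 26 KO UMIs, or 6.44 and 7.08 CPM, and the log2 ratio of KO over WT was 0.14 (-0.69 to 0.96). Directions between the libraries therefore rest on the deposited labels.

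Tenocytes made up a smaller share of the KO library. They were 5.56% of WT cells (5.005 to 6.15) and 4.27% of KO cells (3.81 to 4.76), a difference of -1.29 percentage points (-2.03 to -0.558, from a pair of Wilson intervals). Counted among stromal cells, here tenocytes plus Pdgfra-positive cells with none of the 3 excluded genes, they were 22.6% (20.53 to 24.7) in WT and 15.4% (13.9 to 17.1) in KO, a difference of -7.16 points (-9.79 to -4.55). A share in digested muscle depends on how much tendon was dissected and released with the muscle, and whether this differed between the libraries was not tested.

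Cells differed in how many rule genes they held, which is a description since these genes chose the cells. In WT, 207 tenocytes (58.6%) held UMIs of all 5 rule genes, and in KO 129 did (42.7%), a difference of -15.9 points (-23.3 to -8.25). Cells with exactly 4 numbered 108 and 109. Cells with exactly 3 numbered 38 (10.8%) in WT and 64 (21.2%) in KO, a difference of 10.4 points (4.83 to 16.1), and their median depth was 9751 and 11215 UMIs. After each cell had been thinned to 1000 UMIs, the rule was met by 289 of 5668 WT cells (5.10%) and by 207 of 6445 KO cells (3.21%), so the direction was the same at equal depth. Among single genes, keratocan (Kera), a proteoglycan of collagen-rich tissue, was read in 92.6% of WT and 80.5% of KO tenocytes, and chondroadherin (Chad), a matrix protein that binds cells and collagen, in 73.7% and 63.2%. Tnmd was read in 98.3% of both, Cilp2 in 97.7% of both, and Scx in 85.6% and 81.8%.

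**Figure D2:**
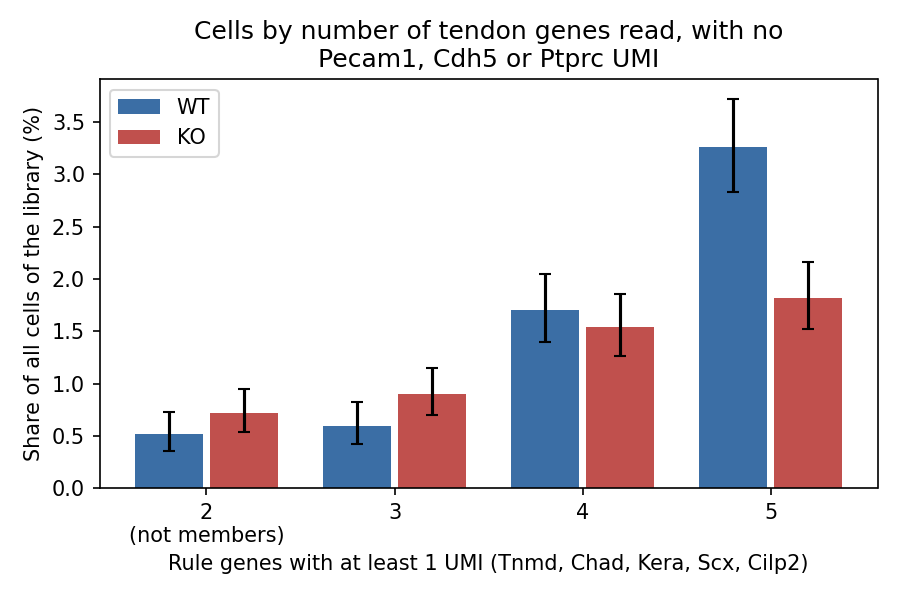
Share of all cells of the WT (blue) and KO (red) library, in percent, by the number of rule genes with at least 1 UMI; bars start at 0 and error bars are exact binomial 95% intervals. Cells with 5 rule genes make up 3.26% of the WT and 1.82% of the KO library, while the intervals of the libraries overlap for cells with 2, 3 or 4.

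The threshold cut through a gradient. Just inside it, cells with 3 rule genes held 2694 (WT) and 3864 (KO) CPM of Fmod and 442 and 775 of Dpt, the gene of the stromal matrix protein dermatopontin. Just outside it, the 33 WT and 51 KO cells with 2 rule genes held 648 and 1833 of Fmod and 871 and 1108 of Dpt. Cells with all 5 held 12569 and 14256 of Fmod but 57.3 and 34.9 of Dpt. Pdgfra likewise stood at 57.6 and 83.7 CPM in cells with 3 rule genes and at 27.1 and 26.3 in cells with 5.

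Compared with other stromal cells of the same library, 422 of 9943 genes (4.24%) were at least 2-fold higher in tenocytes of both libraries and 808 (8.13%) were at least 2-fold lower. Ranked by the library with the smaller ratio, the Wnt antagonist Wif1 led: 485 CPM in WT and 320 in KO tenocytes against 0.476 and 0.0786 in other stromal cells. Fmod followed, with log2 ratios of 9.31 and 9.69. Mohawk (Mkx), the transcription factor that maintains tendon fibrils, stood at 143 and 109 CPM against 0.952 and 0.314. Genes best known from cartilage were also in this set: Col2a1 (119 and 97.7 CPM against 0.595 and 0.157), the fibril component Col11a2 (747 and 544 against 3.10 and 2.52), and matrilin 3 (Matn3), at 62.8 and 53.4 CPM with 0 UMIs in other stromal cells. Col22a1, at 97.8 and 116 CPM, had 0 UMIs in WT and 0.157 CPM in KO other stromal cells. Against a floor of 3 UMIs, Matn3 was at least 7.46 and 7.82 log2 units higher, and Col22a1 in WT at least 8.10. The glycoprotein hormone subunit Gpha2, at 87.2 and 57.4 CPM, was likewise at 0 in other stromal cells, which puts its log2 ratio at 7.93 or more in each library.

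Further genes of this set were the long pentraxin Ptx4, Col13a1 of muscle and nerve contacts, Angptl7 (999 and 703 CPM against 16.5 and 12.03), Ecrg4 (2515 and 2216 against 29.9 and 30.0), Egfl6, Insc, Atp6v0a4, Cybrd1, Zfp185 and the metallothionein Mt3. Mstn, which encodes the muscle growth inhibitor myostatin, also ranked among these 20: it was read as 113 UMIs in WT and 402 in KO tenocytes, against 0.238 and 0.314 CPM in other stromal cells.

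Gene lists described the contrast by role. The tendon matrix list held 19 genes outside the rule that could be compared, of which 14 were at least 2-fold higher in tenocytes of both libraries. Among them were the thrombospondins Thbs4 (5284 and 6290 CPM against 320 and 599) and Comp (1816 and 1739 against 69.0 and 122) and the glycoprotein tenascin C (Tnc, 588 and 547 against 19.0 and 38.1). Type I collagen was higher (Col1a1, 58135 and 43922 CPM against 7502 and 7974), as was the cross-linking enzyme lysyl oxidase (Lox, 1251 and 980 against 162 and 218), whereas type III collagen was lower (Col3a1, 3391 and 6235 against 14629 and 17681). In the FAP list 17 of 21 genes were at least 2-fold lower in both libraries and 0 were higher; gelsolin (Gsn) stood at 2386 and 2766 CPM against 21188 and 20469. In the inflammatory list 17 of 28 were lower and 1 was higher, and in the interferon list 12 of 20 were lower and 0 were higher. In the immediate-early list, genes induced within minutes of a stimulus, 0 of 25 were 2-fold apart in either direction, and in the heat-shock list 1 of 13 was lower.

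Tenocytes were not uniform. Graph clustering of the 655 cells gave 5 groups, numbered by size, and each is named here only by its number and leading genes, which chose the groups and are no result. Group 1 (220 cells) had Col22a1, Prph, Tnfrsf21 and Spock3 among its leading genes. Group 2 (136) was led by Fos, Gm26532, Dusp1, Klf2 and Jun, group 3 (115) by Eln, Dpt, Ifi203, Mfap5 and Ifi204, group 4 (107) by genes that included Ptgs2, Cpz, Slc7a11 and Chac1, and group 5 (77) by Slpi, Terf2ip, Gpha2, Angptl7 and Pla2g5. Median depth per cell ran from 6881 UMIs in group 5 and 8892.5 in group 1 to 14561 in group 3 and 15968 in group 4. Its part in the grouping was not tested beyond clustering at 1000 UMIs per cell, which gave 3 groups. The largest overlaps of these 3 were with groups 1, 2 and 4, and none was with group 3 or 5. At resolution 0.3 without thinning, a group of 113 cells lay wholly within group 3.

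The general tendon genes were present in every group but at unequal levels. Tnmd ranged from 1691 CPM in group 3 to 2710 in group 5, and Thbs4 from 4670 in group 4 to 7202 in group 1. Fmod ran from 4245 in group 3 to 15689 in group 5, Chad from 410 to 3506 in the same groups, and Comp from 885 in group 3 to 2987 in group 5. Wif1, the Wnt antagonist, was split: 53.8 CPM in group 1 and 72.2 in group 3, against 794, 711 and 801 in groups 2, 4 and 5. Col1a1 was split the same way, at 25523 and 27346 CPM in groups 1 and 3 against 62764 to 88879 in the others. Chodl went the opposite way, with 681 and 420 CPM in groups 1 and 3 against 2.92 to 91.3. Chodl was among the leading genes of group 1 and Wif1 among those of group 2. The groups were drawn from gene levels in these same cells, so all these splits are descriptions and no result.

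**Figure D3:**
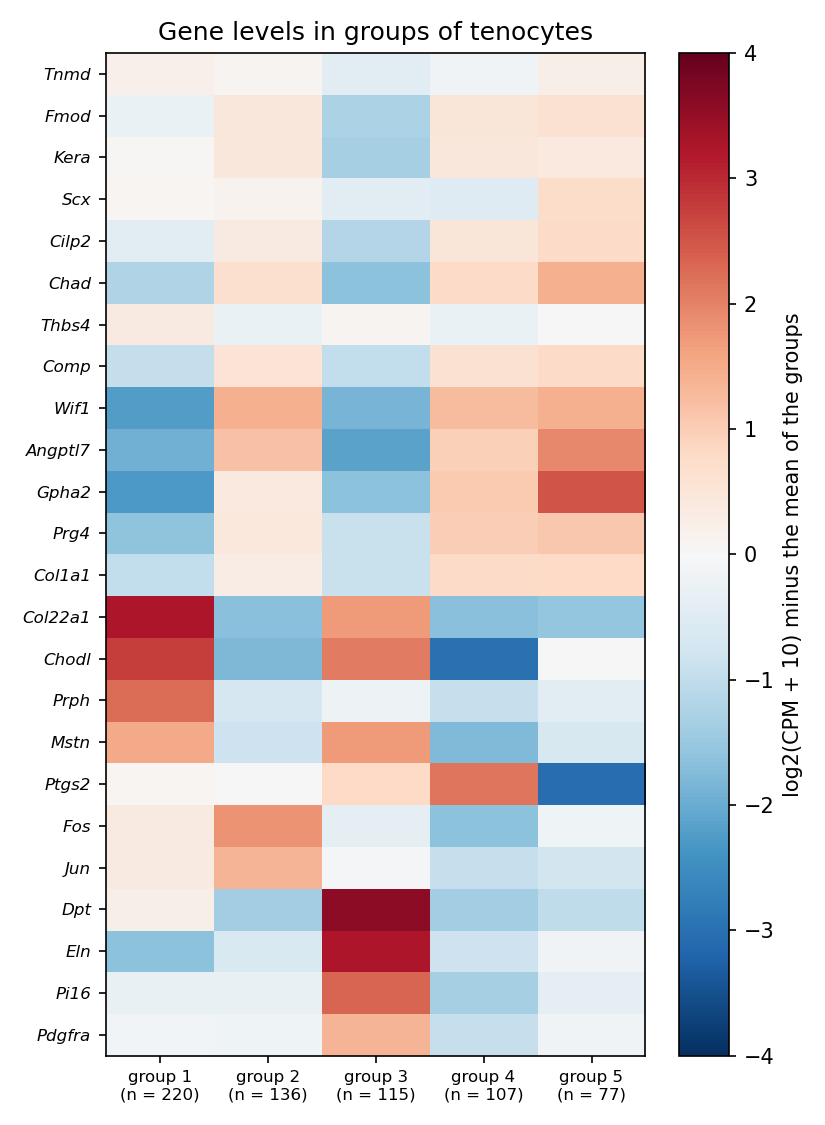
Heat map of log2(CPM + 10) minus the mean of the 5 groups, for tendon genes and leading genes (rows) in the groups of tenocytes (columns, number of cells given); red is above and blue below the gene's mean. Groups 2, 4 and 5 share high Wif1, Angptl7, Comp and Chad, groups 1 and 3 share Col22a1, Chodl and Mstn, and group 3 alone is high in Dpt, Eln and Pi16. The groups were drawn from gene levels in these same cells, so the pattern is a description.

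Group 3 held most of the cells near the threshold. Of its 115 cells, 50.4% had exactly 3 rule genes, against 3.68% to 12.3% in the other groups, and genes of the FAP list summed to 7384 CPM there against 2362 to 4577. Its Pdgfra level was 90.4 CPM, against 10.5 to 26.0 in the other groups. Group 3 was drawn from gene levels in these same cells, so its levels are descriptions. Since leading genes of the groups differed between the libraries, group sizes were compared only after clustering without the 214 genes that were 2-fold apart. In that clustering the group sharing 97 of its 117 cells with group 4 held 22.9% of WT and 11.9% of KO tenocytes, a difference of -11.0 points (-16.7 to -5.21). A group sharing 73 of its 124 cells with group 1 held 15.9% and 22.5%, a difference of 6.65 points (0.624 to 12.8). The group sharing 57 of its 86 cells with group 3 held 10.2% of WT and 16.6% of KO tenocytes, a difference of 6.36 points (1.15 to 11.7).

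Tenocytes with a Col22a1 UMI, the gene of the myotendinous junction, numbered 51 of 353 in WT (14.4%) and 72 of 302 in KO (23.8%). At 1000 UMIs per cell these shares were 6.32% (4.004 to 9.42) and 7.46% (4.73 to 11.1), and their intervals overlapped. Chodl, which encodes a membrane lectin, stood at 1092 CPM (1013 to 1176) in these WT cells and at 82.4 (73.4 to 92.2) in the remaining WT tenocytes, and in KO at 861 (802 to 922) and 195 (179 to 212). Thbs4 stood at 9587 and 4532 in WT and at 9079 and 5338 in KO. Wif1 was nearly confined to cells without Col22a1: 17.0 against 567 CPM in WT and 7.49 against 427 in KO. Scx did not follow this split to the same degree, at 589 against 433 CPM in WT and 586 against 352 in KO. In each of these genes the intervals of cells with and without Col22a1 did not overlap in either library, and the median depths of the cells were close (10618 and 11832 UMIs in WT, 12078 and 11629 in KO).

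Between the libraries, 134 of 8748 genes with at least 50 UMIs (1.53%) were at least 2-fold higher in KO tenocytes and 80 (0.914%) were at least 2-fold lower. In cells with all 5 rule genes, a subset chosen after seeing the data, 73 of 7037 genes were higher and 131 were lower. Without group 3, 99 of 8005 were higher and 85 lower. The median log2 ratio over all genes was 0.05. In the paragraphs on this comparison, levels are given for WT and then KO, and a signed value after them is the log2 ratio of KO over WT with its interval.

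**Figure D4:**
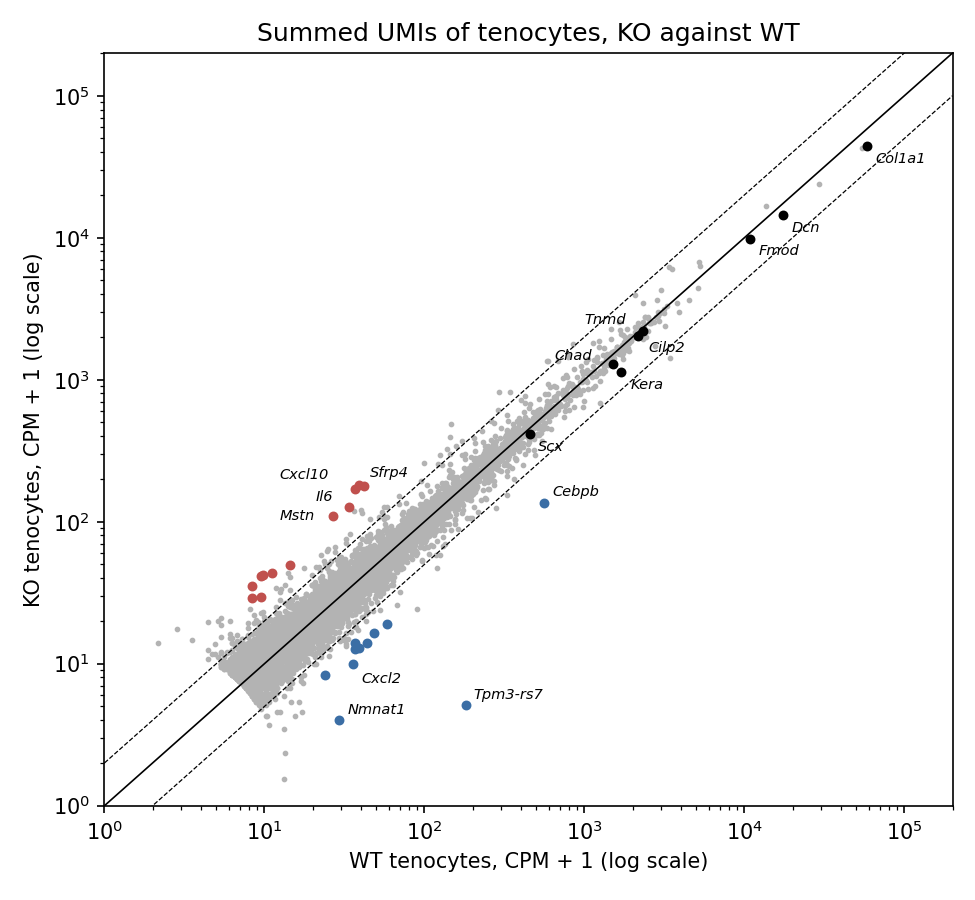
Summed level of each gene in KO against WT tenocytes, in CPM plus 1 on log axes; the solid line marks equality and the dashed lines 2-fold differences. Red and blue points are the 12 genes highest and 11 of the 12 lowest in KO by ratio among genes with at least 100 UMIs, black points are the 5 rule genes, Fmod, Col1a1 and Dcn, which lie within the dashed lines, and Tpm3-rs7 lies furthest below (180 and 4.08 CPM).

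Most tendon genes lay within 2-fold. The regulator and tendon matrix lists include rule genes, whose values are descriptions, and the tendon matrix median was not computed without them. Among regulators, Scx, a rule gene given as a description, stood at 456 CPM in WT and 412 in KO (log2 ratio, -0.15, -0.25 to -0.05). Mkx, outside the rule, stood at 143 and 109 (-0.38, -0.57 to -0.20). Egr1 stood at 1673 and 2223, and Egr2 was the one regulator of 13 past 2-fold, at 67.9 and 150 CPM (1.15, 0.94 to 1.36). The tendon matrix list had a median log2 ratio of -0.09. In it 2 of 23 genes were at least 2-fold higher in KO, against 1.53% of all genes, and 0 lower. These 2 were the cartilage intermediate layer protein Cilp (850 and 1773 CPM, 1.06, 1.003 to 1.12), whose ratio in other stromal cells was 1.04, and the secreted protein Myoc (94.3 and 192, 1.02, 0.84 to 1.20).

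Several tendon genes were lower in KO by less than 2-fold. Kera, a rule gene given as a description, stood at 1681 and 1131 CPM (-0.57, -0.63 to -0.52). Outside the rule, Wif1 stood at 485 and 320 (-0.60, -0.70 to -0.50) and Angptl7 at 999 and 703 (-0.51, -0.58 to -0.44). In cells with all 5 rule genes the ratios of Wif1 and Angptl7 were -0.12 and -0.07, and without group 3 they were -0.31 and -0.26. Fmod, at -0.14 (-0.16 to -0.12) in all tenocytes, was 0.18 in that subset and 0.07 without group 3, so its direction turned. Thbs4 (0.25, 0.22 to 0.28) and Chodl (0.65, 0.53 to 0.77) were higher in KO; Chodl was 0.76 in the subset and 0.68 without group 3.

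In the cartilage list all 7 genes that could be compared were below 0, as were 3802 of all 8748 genes. Their median was -0.28 and 0 were past 2-fold. Sox9, the master regulator of cartilage that is also active where tendon attaches, stood at 101 CPM in WT and 65.3 in KO (-0.62, -0.86 to -0.40). In this gene the difference was larger in the stricter sets, at -1.59 in cells with all 5 rule genes and -1.51 without group 3. In other stromal cells Sox9 was 109 and 115 CPM.

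Fibrillar collagens did not move together. Col1a1 stood at 58135 and 43922 CPM (-0.40, -0.41 to -0.40) and Col1a2 at 54455 and 42610 (-0.35, -0.36 to -0.34). Col3a1, the collagen of loose and healing tissue, was higher in KO, at 3391 and 6235 (0.88, 0.85 to 0.91), and Col5a1 at 459 and 676 (0.56, 0.47 to 0.64). In cells with all 5 rule genes Col3a1 was 2073 and 1983 CPM and its ratio was -0.06, and Col1a1 was -0.15. Of the 18 genes of this list 0 were past 2-fold and the median was 0.09. In the small leucine-rich proteoglycans 2 of 12 were higher, against 1.53% of all genes. They were asporin (Aspn, 595 and 1349 CPM, 1.18, 1.11 to 1.25) and lumican (Lum, 143 and 301, 1.07, 0.93 to 1.22). Aspn stood at 2827 CPM in group 3 and at 46.7 to 824 in the others, and without group 3 the ratios were 0.51 and 0.12.

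**Figure D5:**
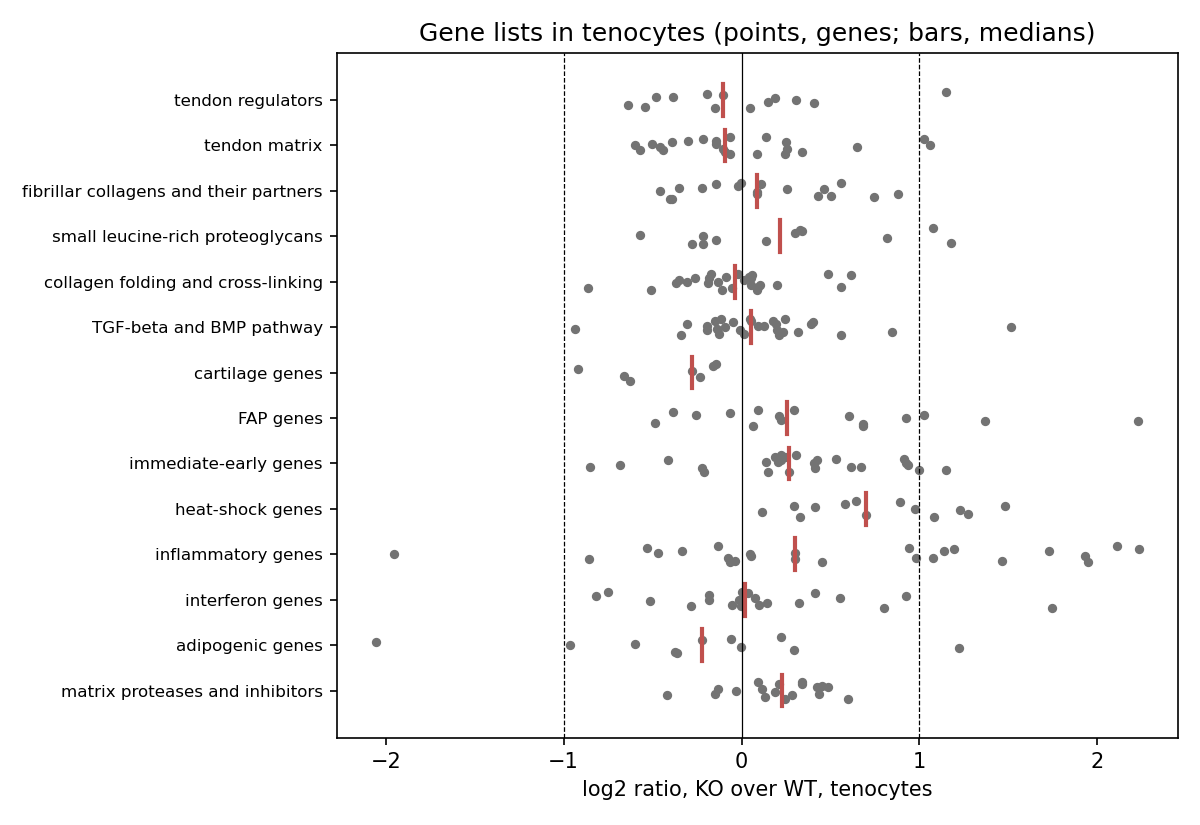
Log2 ratio of KO over WT in tenocytes for the genes of 14 lists (points), with the median of each list (red bar) and dashed lines at 2-fold. The medians of the tendon matrix list (-0.09) and collagen list (0.09) lie near 0, the 7 cartilage genes lie below 0, the 13 heat-shock genes lie above 0, and the inflammatory list spreads from -1.95 (Cxcl2) to 2.24 (Cxcl10). The tendon regulator and tendon matrix lists include rule genes, whose values are descriptions.

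Mstn was the gene restricted to tenocytes that differed most. It stood at 26.0 CPM in WT and at 109 in KO (2.07, 1.77 to 2.39). It was read in 32 WT cells (9.07%) and 43 KO cells (14.2%), and the KO level lay above the WT interval. At 1000 UMIs per cell it was read in 1.44% of WT and 5.08% of KO tenocytes, against 0 and 0.0591% of endothelial cells. The top cell of each library held 34.5% and 19.2% of its UMIs, and without these cells the ratio was 2.38. It was 2.36 without group 3 and 1.95 in cells with all 5 rule genes, so its direction held in each. The gap was narrower in tenocytes with a Col22a1 UMI, where Mstn stood at 78.9 CPM (58.7 to 104) in WT and 135 (112 to 160) in KO. In tenocytes without one, Mstn stood at 16.8 (12.8 to 21.5) and 101 (89.3 to 113). In groups 1 and 3, where it stood at 111 and 127 CPM against 2.33 to 17.3 in the others, the ratio was 1.99 and 1.02. Myostatin is made chiefly by muscle fibers, and the 12 fiber markers (Acta1, Ckm and others) summed to 121 CPM in WT and 143 in KO tenocytes; their part in the Mstn difference was not tested.

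Several cytokine and chemokine genes were higher in KO, at low levels. In the inflammatory list 9 of 25 were at least 2-fold higher and 1 was lower, against 1.53% and 0.914% of all genes. The list median was 0.30 in tenocytes and 0.31 in other stromal cells. The interferon-induced chemokine Cxcl10 stood at 35.7 and 168 CPM (2.24, 1.98 to 2.50) and the monocyte chemokine Ccl7 at 40.9 and 177 (2.11, 1.87 to 2.36). Cxcl10 came from 24 WT and 31 KO cells, with 31.0% and 30.3% of its UMIs in 1 cell of each, and its ratio was 0.84 in cells with all 5 rule genes. At 1000 UMIs per cell Ccl7 was read in 1.15% and 5.42% of tenocytes, in 1.499% and 2.78% of endothelial cells and in 19.9% and 24.2% of immune cells. The cytokine Il6 stood at 32.7 and 126 CPM (1.95, 1.67 to 2.23) and was read in 11.9% and 28.1% of cells. At 1000 UMIs per cell these shares were 1.72% and 9.83%, against 4.20% and 11.4% in endothelial cells of the same libraries, so they were not above the share in another cell type. In other stromal cells Il6 stood at 181 and 622 CPM and its ratio was 1.78. Cxcl10 at 1000 UMIs was read in 2.01% and 3.39% of tenocytes and in 10.8% and 12.2% of endothelial cells, so RNA free in the droplets was not told apart from expression in tenocytes for any of these 3 genes. The NF-kappaB inhibitor Tnfaip3 (1.93), Il11 (1.73), Cxcl9 (1.46), Nfkbiz (1.19), Icam1 (1.14) and Ccl2 (1.08) were the other members past 2-fold. Ptgs2, the inducible prostaglandin synthase, was lower by less than 2-fold, at 360 and 198 CPM (-0.86, -0.99 to -0.73).

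Other genes with the highest ratios were the kinase gene Map3k8 (10.1 and 42.2 CPM, 2.06) and the lipid enzyme gene Agpat4 (13.3 and 48.5, 1.86), whose ratio in other stromal cells was 3.25, and Tnfaip2 (7.36 and 34.0, 2.21). A further set was read mostly in group 3, and Rbp4 was among the genes that led it. Rbp4, which encodes the retinol carrier, stood at 8.51 and 40.3 CPM (2.24), the Wnt modulator Sfrp4 at 38.2 and 179 (2.23), the interferon-inducible gene Mndal at 8.74 and 41.1 (2.23) and the matrix gene Hmcn1 at 8.51 and 28.6 (1.75). Without group 3 too few UMIs were left for Rbp4 (6 WT and 1 KO), Mndal (25 and 6) and Hmcn1 (9 and 6) to reach the minimum of 50, and Sfrp4, with 104 and 132, had a ratio of 0.93 (0.55 to 1.31). In the FAP list 3 of 16 genes were at least 2-fold higher (Sfrp4, Pi16 and Myoc), against 1.53% of all genes. Pi16 (23.5 and 60.7 CPM, 1.37) had a ratio of -0.16 in cells with all 5 rule genes.

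Among the genes lowest in KO, Cebpb, a transcription factor of inflammation and adipogenesis, stood at 562 and 135 CPM (-2.06, -2.20 to -1.92). It was lower in each of the 5 groups, by -1.76 to -2.31, and its ratio in other stromal cells was -1.50. Its relative Cebpd went the other way, at 586 and 1365 (1.22, 1.15 to 1.29). The amino acid transporter genes Slc7a11 (42.8 and 13.1 CPM, -1.71) and Slc7a5 (37.7 and 11.98, -1.66) were also in this set, with ratios of -0.71 and -0.67 in other stromal cells. Mt3 of the tenocyte-restricted set stood at 124 and 57.2 (-1.11, -1.35 to -0.88).

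Of the other genes described among the lowest 12, Cxcl2 alone was not lower in other stromal cells. Nmnat1, which makes NAD, stood at 28.3 and 2.99 CPM (-3.24), with -3.70 in other stromal cells. Larp1b (-1.67), Zbed5 (-1.63), Pou3f1 (-1.62), Vps37b (-1.61) and Ppp2cb (-1.46) had ratios of -1.39, -1.48, -1.25, -0.60 and -1.47 there. Tpm3-rs7 held 781 WT and 15 KO UMIs (-5.46), but it is a near-identical copy of Tpm3, whose ratio was 1.73, so reads can be split between them. Summed, they stood at 325 and 487 CPM (0.58, 0.48 to 0.69). The chemokine Cxcl2 stood at 34.7 and 8.98 CPM (-1.95, -2.54 to -1.40), and 31.8% of its WT UMIs were in 1 cell; without the top cell of each library it was -1.69.

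All 13 heat-shock genes had a ratio above 0, as did 4938 of all 8748 genes. Of the 13, 4 were at least 2-fold higher, against 1.53% of all genes (Hspa1b at 1.48, Dnajb1 at 1.27, Hsph1 at 1.23 and Hspa1a at 1.08). The list median was 0.70 in tenocytes and 1.14 in other stromal cells. Of 25 immediate-early genes 20 were above 0, and 1, Egr2, was at least 2-fold higher, against 1.53% of all genes, with a median of 0.27 (0.25 in other stromal cells). Klf4 (2769 and 1726 CPM, -0.68) and Fosb (3185 and 2392, -0.41) were among the 5 below 0, and Btg2 (683 and 1362, 0.995) was highest after Egr2. Dispersal of the tissue is shared by all cells of a library, and its part in these values was not tested.

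Counts for signals between tenocytes and their surroundings stand beside 1.53% of all genes at least 2-fold higher and 0.914% lower. In the TGF-beta and BMP list 1 of 29 genes was past 2-fold, the latent binding protein gene Ltbp2 (39.8 and 114 CPM, 1.52, 1.26 to 1.78), with 0.93 without group 3. Inhba, which encodes activin A, stood at 133 and 69.1 (-0.94, -1.16 to -0.72). In the growth factor list 1 of 25 was higher (Sfrp4) and 2 were lower, among them Igfbp2, whose 53 WT and 2 KO UMIs (-4.49, -7.57 to -2.56) lay to 69.8% in 1 WT cell. Igf1 stood at 518 and 726 CPM (0.49). Among 13 gasdermin pathway genes 7 could be compared and 0 were 2-fold apart. Gsdmd, which encodes the related pore-forming protein gasdermin D, stood at 6.67 and 7.89 CPM.

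Further lists are given beside the same all-gene shares, 1.53% higher and 0.914% lower. Collagen folding and cross-linking (26 genes), matrix proteases and inhibitors (18) and the tendon sheath list (8) had 0 genes past 2-fold; their medians were -0.04, 0.23 and 0.23. Mmp2 stood at 1230 and 1859 CPM (0.60) and the lubricin gene Prg4 at 804 and 611 (-0.40). In the interferon list 1 of 20 was higher (Ifi203, 1.74), and it led group 3. In the adipogenic list of 11, Cebpd was higher and Cebpb lower, with a median of -0.22. In the strain-responsive list 1 of 13 was higher, Ankrd1, at 2.53 and 13.6 CPM. The 4 cell-cycle and 2 bone genes that could be compared had 0 past 2-fold.

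Markers of other cells were low and gave these values beside the comparisons. The 12 endothelial markers summed to 280 CPM in WT and 215 in KO tenocytes, with Pecam1 and Cdh5 at 0 by the rule. The 12 immune markers summed to 101 and 84.7 CPM with Ptprc at 0 by the rule. The 12 mural markers summed to 254 and 320, of which Acta2 and Tagln were 76.6 and 58.2 in WT, the 10 Schwann markers to 341 and 321 (mostly Pmp22, 303 and 271), and the 5 red cell markers to 18.9 and 22.1. The 10 muscle stem cell markers summed to 265 and 420, of which Chodl, itself a tenocyte gene here, made 233 and 365. The part of such RNA in the differences was not tested.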

How the data were processed

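Per the labels, muscle of 1 WT and 1 GSDME-KO library was aligned to mm10; the submitters' processing notes name Cell Ranger 2.1.1, and the methods another version. The authors used Seurat, removed doublets with DoubletFinder and cells rich in mitochondrial RNA, and deposited 1 table whose values are the natural log of 1 plus UMIs per 10000 UMIs of the cell. The suffix of each barcode gives the library. Undoing the log returned whole UMIs within 0.322 UMI over 29528482 values. The ratios were tested on simulated counts. The recovery was only rerun on recovered UMIs of sampled cells turned back to logs. Such a rerun cannot show an error of the first recovery. UMIs were summed over cells, a ratio carries the exact binomial interval of the UMI share, and 0 UMIs were set to 3 for a bound. Called means 2-fold; genes needed 50 UMIs, or 100 to be named among the 12 highest, the 12 lowest and the 20 most above other stromal cells. Also named were the rule genes, Fmod, Col11a1, Gsdme, the 5 leading genes of each group, and list members with the most UMIs or the largest ratios; other list members were named after their values were seen. Leiden clustering used 2000 variable genes, 15 components, 15 neighbors, resolution 0.5 and seed 1. No doublet caller was rerun. Alternatives changed the rule, comparator, scaling, minimum and resolution. Members and gene lists were chosen with earlier results of these data known. Python 3.11.15 was used with scanpy 1.11.5, leidenalg 0.10.2, scipy 1.17.1, numpy 2.4.6 and matplotlib 3.10.9. Some items are not reported here.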

Additional observations from a re-analysis of the deposited data

Results flagged for a closer look

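Cxcl2 drew attention because its direction differed between cell sets: the log2 ratio of KO over WT was -1.95 (-2.54 to -1.40) in tenocytes and 0.26 (0.15 to 0.38) in other stromal cells. The difference between these was not tested.

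Cells that the rule set aside also held tendon RNA. At least 3 rule genes together with a UMI of Pecam1, Cdh5 or Ptprc were read in 67 WT cells (1.05%) and 52 KO cells (0.735%), with median depths of 12250 and 14626 UMIs. Their Tnmd level was 1853 and 1755 CPM. Cdh5 stood at 179 and 228 CPM in them, and the myeloid gene Lyz2 at 186 and 1005. Counting them as tenocytes gave shares of 6.61% and 5.001%. Whether they are pairs of cells was not tested.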

How the results depend on the processing

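The lower share of tenocytes in KO held its direction under every alternative run, from -1.09 points (at least 2 rule genes) to -1.89 (cells thinned to 1000 UMIs), and was -7.16 as a share of stromal cells. Every alternative chose cells by the 5 rule genes or 4 of them, so fewer tenocytes were not told apart from less rule-gene RNA per cell. Cells with exactly 3 rule genes were 0.598% of WT and 0.904% of KO cells. Counts of genes 2-fold apart depended on the minimum: 317 higher and 180 lower at 20 UMIs, 50 and 23 at 200 UMIs; these settings test more or fewer genes. They also depended on the cells, with 73 higher and 131 lower in cells with all 5 rule genes, and 129 lower as a mean over cells. Genes 2-fold above other stromal cells in both libraries numbered 232 at 200 UMIs and 408 to 477 under the other alternatives. The 4 list medians moved by less than their intervals, though the tendon matrix median turned to 0.07 without group 3 and 0.09 with all 5 rule genes, and the collagen median to -0.07 and -0.10. The tendon matrix list includes rule genes, which chose the cells. Clustering gave 3 groups at resolution 0.3 and 3 after thinning, and none of the thinned groups had its largest overlap with group 3. Without group 3, which like the subset with all 5 rule genes was chosen after seeing the data, the ratio was -2.001 (-7.53 to 1.04) for Rbp4 on 6 WT and 1 KO UMIs, -1.48 (-3.05 to -0.16) for Mndal on 25 and 6, and -0.001 (-1.77 to 1.65) for Hmcn1 on 9 and 6, all under the minimum of 50 UMIs, and with all 5 rule genes Dpt turned to -0.72; the cause was not tested. No paired analysis was possible because each genotype had 1 library. Depth limits genes such as Gsdme, read as 28 and 26 UMIs.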
